A study of Homo sapiens with 18 samples.

Results

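The 9 genes described here are the antioxidant and detoxification genes HMOX1, NQO1, GCLM, GCLC, TXNRD1, SRXN1 and OSGIN1, which are known targets of the transcription factor NRF2, together with NFE2L2, which encodes NRF2, and KEAP1, which encodes its inhibitor. They were picked by their symbols, and each of the 9 was found once among the 31004 genes of the count table. Their RNA was measured in 18 libraries made from HCT116 cells, a long-established line from a human colorectal carcinoma, and it was asked whether HMOX1 moved with the other NRF2 targets. The cells carried an overexpression construct for the long noncoding RNA CRLM1, an antisense control of it, or an empty control, and each of these backgrounds received either an hnRNPK overexpression construct or a negative control (NC).

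The 6 groups were named Ctrl_NC (empty control, negative control), Ctrl_hnRNPK (empty control, hnRNPK), CRLM1_NC (CRLM1, negative control), CRLM1_hnRNPK (CRLM1, hnRNPK), Antisense_NC (antisense control, negative control) and Antisense_hnRNPK (antisense control, hnRNPK), with 3 replicates in each. The study's methods describe a lentiviral vector and puromycin selection for stable CRLM1 expression, and whether the cells of both controls went through the same steps is not given in the sources used here. hnRNPK is a nucleic acid binding protein that was supplied from an expression vector. The sample titles only number the replicates, and the study speaks of 3 biological replicates for its CRLM1, antisense and free plasmid cells. How the cultures were separated is not given, so p-values measure the spread between these libraries. In such bulk libraries, fewer cells expressing a gene and less RNA per cell cannot be told apart.

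NRF2 is held at a low level in unstressed cells because KEAP1 presents it to a CUL3 ubiquitin ligase for degradation. When electrophiles or oxidants modify KEAP1, NRF2 escapes, pairs with small MAF proteins and binds the antioxidant response element, a short DNA motif in the promoters and enhancers of its targets. HMOX1 encodes the inducible heme oxygenase that splits heme into iron, biliverdin and carbon monoxide. The heme-sensing repressor BACH1 also occupies the elements of HMOX1, and stress factors such as ATF4 act on this gene as well.

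The genes lie on 8 chromosomes of the build GRCh38 (Gencode version 44). HMOX1 spans chr22:35380361-35394214 on the plus strand, and no other gene of the annotation overlaps it. GCLM, at chr1:93885199-93909456 on the minus strand, is likewise free of overlaps. GCLC (chr6:53497341-53616970, minus strand), NFE2L2 (chr2:177218667-177392756, minus strand), NQO1 (chr16:69706996-69726668, minus strand) and TXNRD1 (chr12:104215779-104350307, plus strand) are each overlapped by at least 1 gene of the opposite strand. These overlaps are of whole gene spans in version 44, whereas the study counted with an earlier Gencode version. Whether the partners share counted exons was not examined. Use of read strand in the counting is not given in the sources used here, so reads of any partner that does cannot be told apart from those of the 4 genes. KEAP1 (chr19:10486125-10503558, minus strand), OSGIN1 (chr16:83931311-83966332, plus strand) and SRXN1 (chr20:646615-653200, minus strand) are each overlapped by 1 gene of their own strand, and their counts carry the same uncertainty.

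The core letters of the antioxidant response element, TGACNNNGC, were searched on both strands of the RefSeq promoter windows of build GRCh38.p14, which run from 250 bases before to 50 bases after a start site. Of the 9 genes, 8 had an entry, with 11 windows in all, and HMOX1 had none. The motif was present in 4 of the 11 windows, those of GCLM, TXNRD1 (both windows) and 1 of the 2 of KEAP1, against 13.3% of 35116 windows over all genes. The windows that hold it are shown 5′ to 3′ on the strand of the gene, with the motif in capitals, and that of NQO1 is added because NQO1 moved against the other targets in the cells carrying the antisense control.
GCLM chr1:93909381-93909680, minus strand: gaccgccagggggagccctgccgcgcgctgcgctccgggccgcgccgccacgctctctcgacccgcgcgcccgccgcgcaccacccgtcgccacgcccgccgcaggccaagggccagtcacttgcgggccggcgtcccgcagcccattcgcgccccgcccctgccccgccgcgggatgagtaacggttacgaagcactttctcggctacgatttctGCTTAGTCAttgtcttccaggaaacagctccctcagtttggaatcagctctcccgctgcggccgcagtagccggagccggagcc
TXNRD1 chr12:104215529-104215828, plus strand: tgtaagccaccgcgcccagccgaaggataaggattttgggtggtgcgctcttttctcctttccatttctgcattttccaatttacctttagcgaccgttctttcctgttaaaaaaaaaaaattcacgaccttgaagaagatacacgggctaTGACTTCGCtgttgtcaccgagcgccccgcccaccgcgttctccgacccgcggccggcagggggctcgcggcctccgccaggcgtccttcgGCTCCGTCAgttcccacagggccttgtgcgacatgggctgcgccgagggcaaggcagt
TXNRD1 chr12:104286782-104287081, plus strand: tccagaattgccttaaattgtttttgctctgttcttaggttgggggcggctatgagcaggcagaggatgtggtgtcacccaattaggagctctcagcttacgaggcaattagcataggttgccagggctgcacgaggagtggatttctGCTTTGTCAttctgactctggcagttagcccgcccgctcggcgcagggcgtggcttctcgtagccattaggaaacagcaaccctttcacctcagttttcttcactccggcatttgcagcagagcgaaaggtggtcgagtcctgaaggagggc
KEAP1 chr19:10502722-10503021, minus strand: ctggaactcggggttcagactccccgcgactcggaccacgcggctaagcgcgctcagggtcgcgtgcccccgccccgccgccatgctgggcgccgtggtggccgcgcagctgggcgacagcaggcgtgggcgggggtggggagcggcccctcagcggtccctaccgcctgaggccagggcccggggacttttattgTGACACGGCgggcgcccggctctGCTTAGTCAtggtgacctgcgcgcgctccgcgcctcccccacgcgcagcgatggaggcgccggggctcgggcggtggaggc
NQO1 chr16:69726511-69726810, minus strand: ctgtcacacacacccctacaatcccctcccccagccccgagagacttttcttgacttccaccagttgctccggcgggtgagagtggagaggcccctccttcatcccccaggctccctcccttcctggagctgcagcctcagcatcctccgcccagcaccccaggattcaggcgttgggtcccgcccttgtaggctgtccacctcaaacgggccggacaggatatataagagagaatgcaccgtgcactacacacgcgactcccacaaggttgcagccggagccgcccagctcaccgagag
In GCLM the match lay on the opposite strand with its first base 34 bases before the start site. The match at 31 bases before the start site of KEAP1 had the same 9 letters as that of GCLM, and a second one lay at 54 bases. The upstream window of TXNRD1 held matches at 99 and 8 bases before its start, and the downstream window held 1 at 102 bases. The windows printed for GCLM, TXNRD1 and KEAP1 thus carry the letters, while those of GCLC, NFE2L2, NQO1, OSGIN1 and SRXN1 do not within this stretch. A match is a description of the letters and no evidence that a factor binds there.

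Between 19732681 and 27039520 reads per library were assigned to genes. HNRNPK reached 471 ± 8.43 CPM (read counts scaled to a common library size with TMM factors; mean ± SD, n = 3) in Ctrl_NC and 584 ± 81.6 CPM in Ctrl_hnRNPK, and it was likewise higher in the hnRNPK group of both other backgrounds. The gene of CRLM1, listed as RP4-710M16.2, had no read in the Ctrl libraries, 599 ± 10.5 CPM in CRLM1_NC and 49.8 ± 0.307 CPM in Antisense_NC. The epithelial markers EPCAM, CDH1, KRT8, KRT18 and KRT19 were all detected, whereas the summed level of the leukocyte or endothelial markers reached at most 0.04 FPKM (fragments scaled to exon length and sequencing depth) in any library and that of the fibroblast markers lay between 1.69 and 3.91 FPKM. In 2 hnRNPK libraries the profile across genes lay nearer to NC libraries than to their own group. HNRNPK itself was nonetheless higher in every Ctrl_hnRNPK library (at least 491 CPM) than in any Ctrl_NC library (at most 480 CPM). The same held for CRLM1_hnRNPK (at least 571 CPM) against CRLM1_NC (at most 461 CPM). The third Ctrl_hnRNPK library correlated at r = 0.988 to 0.989 with the Ctrl_NC libraries and at 0.949 to 0.956 with the other two of its own group. For the third CRLM1_hnRNPK library the values were 0.982 to 0.983 with CRLM1_NC and 0.941 to 0.948 with its own group. These r values were taken across genes, which are not independent, and the study itself set both libraries aside. Each main result on hnRNPK in these 2 backgrounds is therefore given with all libraries and without the third. The correction for GC content and length was run there only with the third libraries kept or with other single libraries not left out.

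On the length-scaled FPKM values, which permit a comparison between genes, NQO1 was the most abundant of the 9 in Ctrl_NC with 182 ± 3.55 FPKM (SD, n = 3), followed by TXNRD1 with 64.0 ± 0.755 FPKM and SRXN1 with 24.9 ± 1.60 FPKM. HMOX1 was at 16.0 ± 0.342 FPKM. The least abundant was GCLM with 3.00 ± 0.318 FPKM, below NFE2L2 and GCLC at 7.04 ± 0.468 and 7.34 ± 0.184 FPKM. In Antisense_hnRNPK the order at the top was exchanged, with TXNRD1 at 261 ± 8.26 FPKM and NQO1 at 133 ± 3.39 FPKM. All 9 genes were abundant enough to pass the filter on low counts in each comparison, so every one of them was tested throughout.

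**Figure D1:**
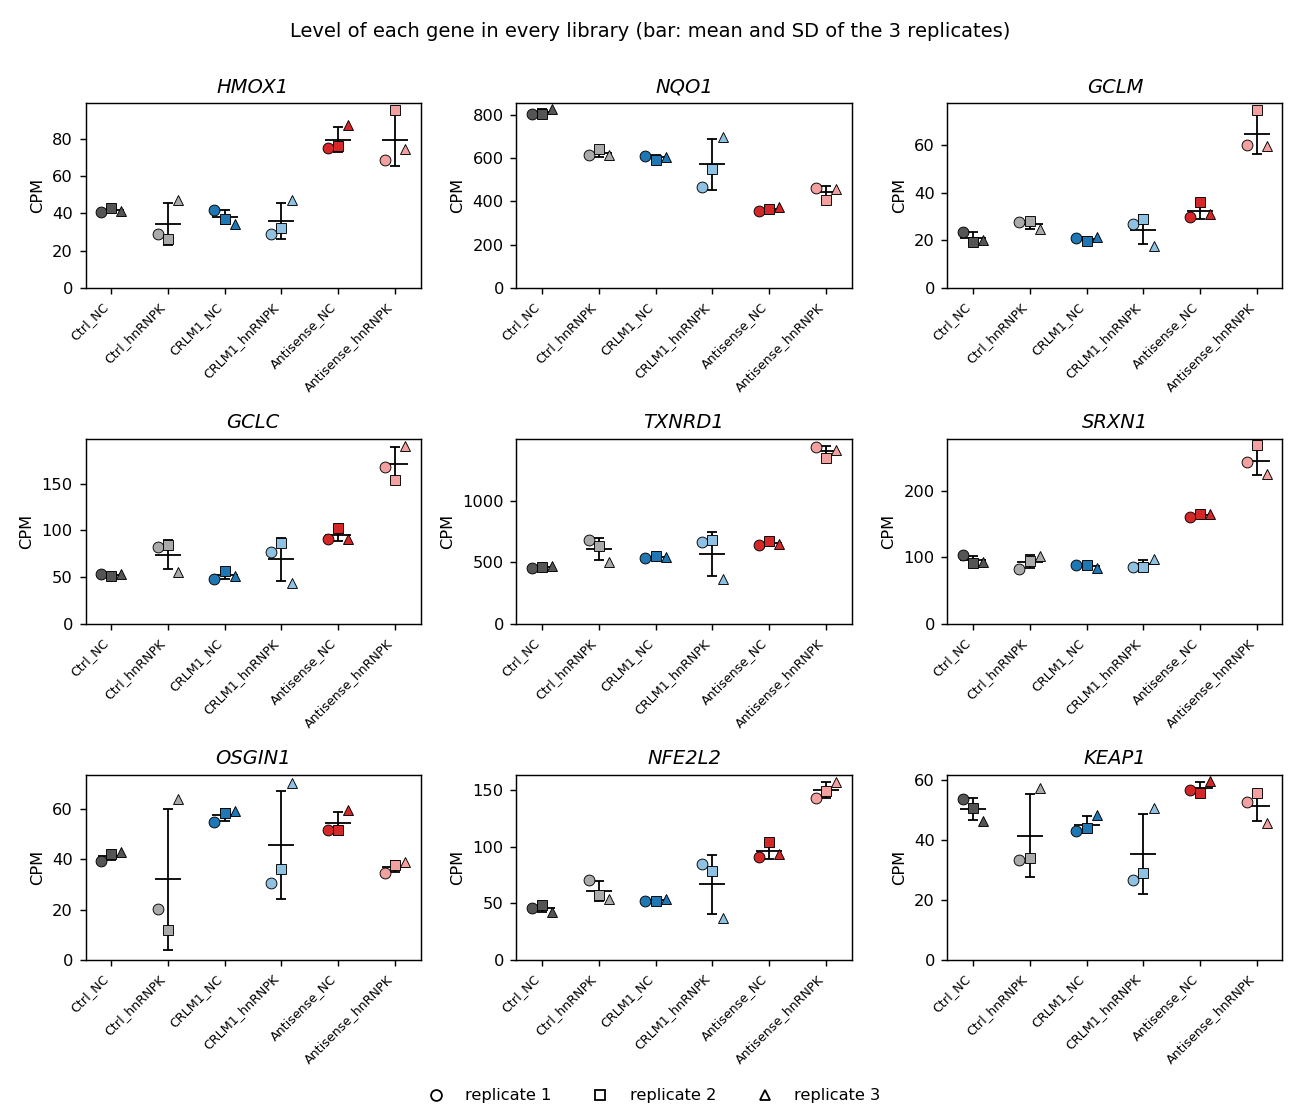
Level of each of the 9 genes in CPM (vertical axis, starting at 0) in the 18 libraries, by group (horizontal axis), with marker shape for the replicate and a bar for the mean and SD of 3 replicates. HMOX1 was above 68 CPM in each of the 6 Antisense libraries and below 48 CPM in each of the other 12, while NQO1 was lowest in the Antisense libraries and the third Ctrl_hnRNPK and CRLM1_hnRNPK libraries (triangles) sat apart from their group for HMOX1, GCLC, OSGIN1 and KEAP1.

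HMOX1 separated the antisense background from the rest. Its level was 40.9, 42.8 and 41.5 CPM in replicates 1 to 3 of Ctrl_NC and 42.0, 37.2 and 34.5 CPM in CRLM1_NC. The Antisense_NC libraries held 75.4, 76.1 and 87.5 CPM and those of Antisense_hnRNPK 68.5, 95.5 and 74.6 CPM. The Antisense libraries did not overlap with any other library, and the 2 Antisense groups overlapped with each other. In Ctrl_hnRNPK the values were 29.1, 26.4 and 47.2 CPM and in CRLM1_hnRNPK 29.0, 32.0 and 47.2 CPM. In both of these groups the third library was the highest and lay above the NC libraries, whereas the first and second lay below them. Ordered by mean, the groups ran from Antisense_NC (79.7 ± 6.80 CPM) and Antisense_hnRNPK (79.5 ± 14.2) over Ctrl_NC (41.8 ± 0.942) and CRLM1_NC (37.9 ± 3.80) to CRLM1_hnRNPK (36.1 ± 9.77) and Ctrl_hnRNPK (34.2 ± 11.3; SD, n = 3), and of neighbours in that order, the libraries of Antisense_hnRNPK and Ctrl_NC alone did not overlap.

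NFE2L2, the gene of NRF2 itself, followed a similar but not identical order. It was at 46.0, 48.5 and 42.3 CPM in Ctrl_NC and 52.1, 51.9 and 53.6 CPM in CRLM1_NC. Antisense_NC reached 91.3, 104 and 93.2 CPM and Antisense_hnRNPK 143, 149.6 and 157 CPM. These 4 groups did not overlap with each other. With hnRNPK the Ctrl cells held 70.5, 57.3 and 53.5 CPM and the CRLM1 cells 84.5, 78.8 and 36.7 CPM, the third library being the lowest of each. KEAP1, the adaptor that targets NRF2 for degradation, varied less. Its group means lay between 35.4 ± 13.4 CPM in CRLM1_hnRNPK and 57.4 ± 2.15 CPM in Antisense_NC (SD, n = 3). The 3 libraries held 53.6, 50.8 and 46.4 CPM in Ctrl_NC, 33.3, 33.9 and 57.4 CPM in Ctrl_hnRNPK, and 26.5, 28.9 and 50.8 CPM in CRLM1_hnRNPK. As with HMOX1, the third hnRNPK library of both backgrounds was the highest for KEAP1.

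GCLC and GCLM encode the catalytic and the modifier subunit of glutamate-cysteine ligase, the rate-limiting enzyme of glutathione synthesis. GCLC was at 53.7, 51.3 and 53.2 CPM in Ctrl_NC and 48.4, 56.9 and 50.9 CPM in CRLM1_NC, 2 groups that overlapped. It was at 91.1, 102 and 91.1 CPM in Antisense_NC and 168, 154 and 190.2 CPM in Antisense_hnRNPK, each above every library of the other backgrounds. Ctrl_hnRNPK held 82.3, 84.3 and 55.8 CPM and CRLM1_hnRNPK 77.0, 86.2 and 43.4 CPM. Here the third library was the lowest, the opposite of HMOX1. GCLM ran from 23.6, 19.3 and 20.3 CPM in Ctrl_NC and 20.8, 19.7 and 21.3 CPM in CRLM1_NC to 29.8, 36.1 and 30.9 CPM in Antisense_NC. It reached 59.9, 74.5 and 59.5 CPM in Antisense_hnRNPK. With hnRNPK it was, in the Ctrl and the CRLM1 cells, 27.6, 28.2 and 24.6 and 26.7, 29.1 and 17.8 CPM. The 2 subunit genes thus kept the same order of the Antisense groups, with Antisense_hnRNPK above Antisense_NC and no overlap.

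TXNRD1, which encodes the cytosolic thioredoxin reductase, was at 457, 463 and 466 CPM in Ctrl_NC, 538, 548 and 542 CPM in CRLM1_NC and 639, 669.8 and 647 CPM in Antisense_NC. The 3 NC groups formed separate steps. In Antisense_hnRNPK it reached 1438, 1349.8 and 1409.5 CPM, against 681, 633 and 504 CPM in Ctrl_hnRNPK and 666, 677 and 361 CPM in CRLM1_hnRNPK. SRXN1 encodes sulfiredoxin, which restores overoxidised peroxiredoxins. It was at 103, 91.1 and 93.7 CPM in Ctrl_NC, 88.6, 88.3 and 84.2 CPM in CRLM1_NC, 82.6, 95.1 and 102 CPM in Ctrl_hnRNPK and 85.5, 85.1 and 96.9 CPM in CRLM1_hnRNPK. Antisense_NC stood at 160.5, 164 and 166 CPM and Antisense_hnRNPK at 243, 268 and 225 CPM. The 12 Ctrl and CRLM1 libraries therefore stayed within 82.6 to 103 CPM for SRXN1, and the Antisense libraries were all above that range.

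NQO1 encodes a quinone reductase that is commonly read as a marker of NRF2 activity. Unlike the other enzymes it was highest in Ctrl_NC, with 803, 803 and 828 CPM, and lowest in Antisense_NC, with 353, 366 and 375 CPM. CRLM1_NC held 611, 589 and 606 CPM and Ctrl_hnRNPK 612, 642 and 613 CPM. Those 2 groups lay side by side between the extremes, the highest CRLM1_NC library just below the lowest of Ctrl_hnRNPK. CRLM1_hnRNPK was spread over 466, 549.5 and 697 CPM, and Antisense_hnRNPK held 461, 408 and 457 CPM. OSGIN1, an oxidative stress induced growth inhibitor, was at 39.6, 42.3 and 42.9 CPM in Ctrl_NC, 55.1, 58.7 and 59.4 CPM in CRLM1_NC and 51.6, 51.8 and 59.8 CPM in Antisense_NC. It was widely spread within Ctrl_hnRNPK, at 20.1, 11.7 and 64.3 CPM, and held 30.5, 36.2 and 70.4 CPM in CRLM1_hnRNPK. In Antisense_hnRNPK it was at 34.6, 37.6 and 38.9 CPM, below all Antisense_NC libraries.

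It was first asked whether CRLM1 overexpression changed these genes. Against Ctrl_NC, OSGIN1, TXNRD1 and NFE2L2 were higher in CRLM1_NC and NQO1, KEAP1 and SRXN1 were lower, with folds from 0.734 for NQO1 to 1.37 for OSGIN1. A gene was called where the quasi-likelihood test of edgeR gave an adjusted p of at most 0.05 (Benjamini-Hochberg method, all tested genes together). This gave 3 genes higher and 3 lower of 9, beside 34.3% called, 16.9% higher and 17.4% lower, of the 14459 genes tested. The log2 fold change of NQO1 was -0.45 (SE 0.029, adjusted p = 7.77e-16) and that of OSGIN1 0.45 (SE 0.060, adjusted p = 8.37e-08). TXNRD1 changed by 0.22 (SE 0.029, adjusted p = 1.45e-07) and NFE2L2 by 0.19 (SE 0.061, adjusted p = 0.016). HMOX1 did not pass, at -0.15 (SE 0.069, adjusted p = 0.0816), and its libraries overlapped, although it did pass at -0.23 (adjusted p = 0.0168) when the first CRLM1_NC library was left out. GCLM and GCLC were at -0.043 and -0.032, with adjusted p = 0.76 and 0.728, and turned to 0.035 and 0.046 with library totals. KEAP1 was at -0.17 (SE 0.064, adjusted p = 0.0357) and SRXN1 at -0.15 (SE 0.048, adjusted p = 0.0128). The call of KEAP1 was lost without Ctrl_NC replicate 1 (-0.12) or 2 (-0.16) or without CRLM1_NC replicate 1 (-0.13) or 2 (-0.15), that of SRXN1 without Ctrl_NC replicate 1 (-0.10) or CRLM1_NC replicate 3 (-0.12), and that of NFE2L2 without Ctrl_NC replicate 3 (0.13). After correction for GC content and length, NFE2L2 at 0.10 (adjusted p = 0.245) and KEAP1 at -0.11 (adjusted p = 0.176) did not pass. With library totals the same held for SRXN1 at -0.073 and KEAP1 at -0.092 (adjusted p = 0.247 and 0.278), and DESeq2 did not call KEAP1 (adjusted p = 0.0592). When the spread was estimated over all 18 libraries, none of the 9 passed, beside 102 of 15668 genes. Over 7 lists of other genes of the pathway, median log2 fold changes ran from -0.18 to 0.10, against 0.0059 over all genes. Of the NRF2 regulators and partners, 4 of 9 were higher and 3 lower, from BTRC at 0.66, a substrate receptor for NRF2 degradation, to SQSTM1 at -0.33, which sequesters KEAP1. Of the iron and heme genes, 2 of 9 were higher and 3 lower, with TFRC, the transferrin receptor, at 0.48 and FTH1, the ferritin heavy chain, at -0.73. All 3 thioredoxin and peroxiredoxin genes tested were lower, the lowest being PRDX1 at -0.22. Of the other lists, NADPH supply had 1 of 6 higher and 2 lower, glutathione and cystine 0 of 7 and 2, detoxification and export 0 of 9 and 3, and ATF4 targets 5 of 10 and 2.

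The antisense control was next set against the empty control. Of the 9 genes, 8 were higher in Antisense_NC and 1, NQO1, was lower, beside 66.5% called, 34.4% higher and 32.2% lower, of the 14389 genes tested. The median log2 fold change of the 9 was 0.57, against -0.0025 over all genes tested. NFE2L2 rose by 1.03 (SE 0.059, adjusted p = 8.10e-18) and HMOX1 by 0.88 (SE 0.060, adjusted p = 1.70e-15), a fold of 1.84. GCLC rose by 0.80 (SE 0.054, adjusted p = 1.15e-15), SRXN1 by 0.72 (SE 0.045, adjusted p = 8.58e-17) and GCLM by 0.57 (SE 0.087, adjusted p = 4.17e-07). The rises of TXNRD1 and OSGIN1 were 0.45 and 0.33. NQO1 fell to a fold of 0.434, at -1.20 (SE 0.033, adjusted p = 8.89e-28). HMOX1 and 6 further genes thus rose whichever library was left out, while NQO1 went the other way. None of the 9 changed sign under any alternative processing tried. KEAP1, at 0.14 (SE 0.061, adjusted p = 0.0383), lost its call without Ctrl_NC replicate 2 (0.15) or 3 (0.083) or without Antisense_NC replicate 1 (0.15) or 3 (0.12). DESeq2 and RLE size factors did not call KEAP1 either, and it passed in 7 of 15 alternatives. Scaling by library totals in place of TMM, which raised the median of all genes to 0.16, gave 1.04 for HMOX1 and -1.04 for NQO1. In 1 fit of all 18 libraries, 6 of the 9 were higher and 1 lower, and OSGIN1 and KEAP1 did not pass. That fit called 2875 genes higher and 2218 lower of 15668.

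The other genes of the pathway went both ways in Antisense_NC, where 34.4% of the 14389 genes tested were called higher and 32.2% lower. Of 9 iron and heme genes, 1 was higher and 5 were lower (median log2 fold change -0.10), with ALAS1, which starts heme synthesis, at 0.77 and FTH1 at -1.17. That balance depended on the scaling, with 4 higher and 4 lower (median 0.056) by library totals and 5 higher and 3 lower (median 0.13) by FPKM. All 3 thioredoxin and peroxiredoxin genes fell, PRDX1 by the most, at -0.75. Of 6 genes of NADPH supply, 1 rose (IDH1, 0.52) and 3 fell. Of 9 detoxification and export genes tested, 2 rose and 5 fell. The highest was the exporter gene ABCC2 at 1.01, and the lowest, AKR1C3, was below 1 CPM in both groups. By FPKM 3 of them rose and 3 fell. Among 7 glutathione and cystine genes tested, 3 rose and 3 fell, with a median of -0.036. The highest of them was SLC7A11, the cystine importer, at 2.66 on the log2 scale (adjusted p = 1.28e-23), and the lowest was MGST1 at -0.35. In this list 4 rose and 1 fell (median 0.12) with library totals, 6 and 1 (0.20) with FPKM, and 5 and 2 (0.24) after correction for GC content and length. Over all genes the medians were 0.16, 0.21 and -0.014 in the same order. Those 3 fits called 6219, 6688 and 4578 genes higher and 3392, 2818 and 4610 lower. Of 9 regulators and partners of NRF2, 4 rose and 5 fell, from BTRC at 1.50 to MAFK, a small MAF partner, at -1.13. ATF4 targets, which respond to amino acid and endoplasmic reticulum stress and are shared in part with NRF2, formed the list with the highest median, 1.41. Of these 10 genes, 8 rose and 2 fell, from CHAC1, which degrades glutathione, at 5.47 (adjusted p = 8.99e-29) to ATF3 at -0.92.

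CRLM1_NC was also compared with Antisense_NC. Of the 9 genes, 7 were lower and 1 higher in CRLM1_NC, beside 56.4% called, 29.5% lower and 26.9% higher, of 14364 genes tested. This comparison shares the Antisense_NC and CRLM1_NC libraries with the previous ones, so it is not a separate observation of them. HMOX1 had the largest difference of the 9, at -1.03 (SE 0.068, adjusted p = 2.30e-15), followed by SRXN1 at -0.87 (SE 0.044, adjusted p = 3.48e-19). NFE2L2 and GCLC differed by -0.84 and -0.83, GCLM by -0.61, KEAP1 by -0.31 and TXNRD1 by -0.23, all past the threshold. NQO1 was higher in CRLM1_NC, at 0.76 (SE 0.034, adjusted p = 7.20e-21). In 1 fit of all 18 libraries, 5 of the 9 were lower and 1 higher, and KEAP1 and TXNRD1 did not pass. That fit called 1356 genes lower and 1001 higher of 15668. OSGIN1, at 0.13 (SE 0.063, adjusted p = 0.0865), did not pass with all libraries. It passed at 0.20 (adjusted p = 0.00763) without Antisense_NC replicate 3, and its sign turned with the FPKM values (-0.038) and after correction for GC content and length (-0.034). Of the other lists, ATF4 targets had 8 of 10 genes lower in CRLM1_NC and 2 higher, from CHAC1 at -4.49 to DDIT4, an inhibitor of mTORC1 signalling, at 0.52.

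**Figure D2:**
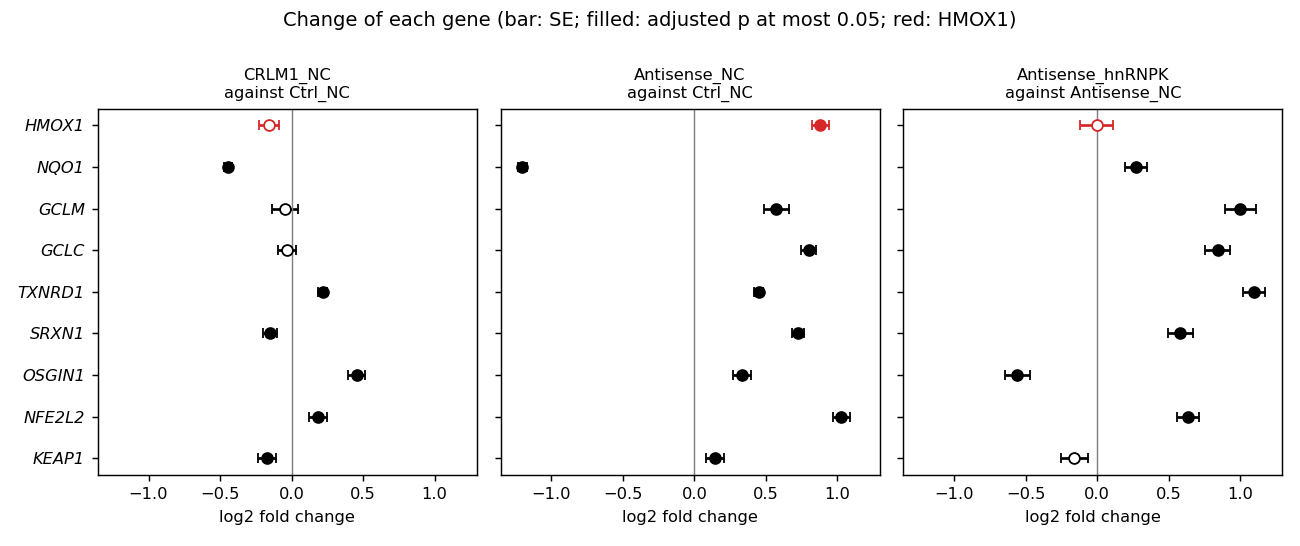
Log2 fold change of each gene (horizontal axis) in 3 comparisons, with the SE as bar, filled points for an adjusted p of at most 0.05 and HMOX1 in red. In Antisense_NC against Ctrl_NC, 8 genes lie to the right of 0 and NQO1 lies at -1.20, while in Antisense_hnRNPK against Antisense_NC HMOX1 sits at 0 beside GCLM at 1.00 and TXNRD1 at 1.10.

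The hnRNPK construct was then examined within each background. In the Ctrl cells none of the 9 genes passed with all libraries, and neither did any of the 14607 genes tested (0%). There, 2246 genes had an unadjusted p under 0.05, the smallest adjusted p was 0.320, and DESeq2 called 2 genes. HMOX1 was at -0.31 (SE 0.22, adjusted p = 0.402). Without the third Ctrl_hnRNPK library, 4 of the 9 were higher and 4 lower, beside 59.6% called, 29.6% higher and 29.9% lower, of 15004 genes. GCLC rose by 0.68 (SE 0.072, adjusted p = 3.38e-07), TXNRD1 by 0.53, NFE2L2 by 0.51 and GCLM by 0.43. The lower genes were OSGIN1 at -1.37 (SE 0.18, adjusted p = 7.30e-05), HMOX1 at -0.57 (SE 0.092, adjusted p = 3.83e-05), KEAP1 at -0.56 and NQO1 at -0.35. SRXN1 did not pass, at -0.085 (adjusted p = 0.358). With all 3 libraries and a correction for GC content and length, GCLM turned to -0.085 and KEAP1 to 0.023. With only 2 hnRNPK libraries, HMOX1 thus moved against GCLC, GCLM, TXNRD1 and NFE2L2 and with KEAP1, OSGIN1 and NQO1.

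In the CRLM1 cells the same contrast gave 0 of 9 genes with all libraries and 0% of the 14394 genes tested, although 1332 genes had an unadjusted p under 0.05 and DESeq2 called 8. The smallest adjusted p was 0.533. HMOX1 was at -0.033 (SE 0.21, adjusted p = 0.958). Without the third CRLM1_hnRNPK library, 4 of the 9 rose and 4 fell, beside 58.5% called, 29.5% higher and 29.1% lower, of 14685 genes. GCLC and NFE2L2 rose by 0.69 each, GCLM by 0.48 and TXNRD1 by 0.36. OSGIN1 changed by -0.74, KEAP1 by -0.66, HMOX1 by -0.27 (SE 0.092, adjusted p = 0.0138) and NQO1 by -0.20. SRXN1 was at 0.019 (adjusted p = 0.81). The correction for GC content and length, with all 3 libraries, turned GCLM to -0.056, TXNRD1 to -0.095 and HMOX1 to 0.13. The genes that were higher and those that were lower are the ones listed for the Ctrl cells, and the libraries of the 2 contrasts are separate. How many of all genes kept their direction in both was not counted, so this likeness cannot be read as particular to the 9. Without the third libraries, log2 fold changes of all genes fell with GC content in both contrasts (Spearman's rho -0.74 and -0.76). In an interaction test of the hnRNPK effect between the CRLM1 and Ctrl backgrounds, none of the 9 genes passed with all libraries, where edgeR called 0% of 15188 genes, 221 had an unadjusted p under 0.05 and DESeq2 called 0. None of the 9 passed without the third hnRNPK libraries either, beside 3.45% of 15485 genes, 3.36% with a more positive and 0.0904% with a more negative change in the CRLM1 cells.

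In the antisense background, 6 of the 9 genes rose with hnRNPK and 1 fell, beside 63.9% called, 33.4% higher and 30.5% lower, of 14501 genes tested. TXNRD1 rose by 1.10 (SE 0.078, adjusted p = 1.17e-07), GCLM by 1.00 (SE 0.11, adjusted p = 3.20e-06) and GCLC by 0.84 (SE 0.086, adjusted p = 1.49e-06). NFE2L2, SRXN1 and NQO1 rose by 0.63, 0.58 and 0.27, and OSGIN1 fell, at -0.56 (SE 0.088, adjusted p = 7.25e-05), but NQO1 turned to -0.082 and OSGIN1 to 0.10 after correction for GC content and length. HMOX1 did not pass on TMM-scaled counts, at -0.0042 (SE 0.12, adjusted p = 0.977), but its value was 0.25 (adjusted p = 0.140) with library totals, which shifted the median of all genes from 0.040 to 0.29, and 0.51 (adjusted p = 0.00355) after correction for GC content and length. KEAP1, at -0.16 (SE 0.092, adjusted p = 0.142), likewise turned to 0.093 with library totals and 0.45 (adjusted p = 0.000819) after the trend was removed. The summed epithelial markers lay between 1842 and 2037 FPKM in Antisense_hnRNPK and between 2400.5 and 2486 FPKM in Antisense_NC, and the fibroblast markers, mainly COL1A1, between 1.69 and 2.08 and between 3.47 and 3.91 FPKM. Their part in these results was not tested. A single library decided some values of the 9 genes. Without Antisense_hnRNPK replicate 2, HMOX1 passed at -0.20 (adjusted p = 0.0412) and KEAP1 at -0.26 (adjusted p = 0.00971), and without Antisense_NC replicate 1, NQO1 no longer passed (0.24, adjusted p = 0.0613). In 1 fit of all 18 libraries, 5 of the 9 were higher and 0 lower, and NQO1 and OSGIN1 did not pass. That fit called 3297 genes higher and 3072 lower of 15668.

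The trend on GC content was a property of all genes in the hnRNPK contrasts. Across genes, which are not independent, Spearman's rho between log2 fold change and the GC content of the longest transcript was -0.71 in the antisense background, and -0.74 and -0.76 in the Ctrl and CRLM1 backgrounds without the third libraries. The 9 genes span this range, from GCLM with 37.3% GC over NFE2L2 (40.5%), NQO1 and GCLC (44.2% each), TXNRD1 (44.6%) and SRXN1 (51.7%) to HMOX1 (58.5%), KEAP1 (60.8%) and OSGIN1 (63.4%). In each background the 3 GC-rich genes had lower log2 fold changes with hnRNPK than GCLM, GCLC, TXNRD1 and NFE2L2. NQO1 did not keep to this order. With all libraries it was at -0.40 in the Ctrl cells, below HMOX1 at -0.31 and KEAP1 at -0.30. In the CRLM1 cells it was at -0.036, beside HMOX1 at -0.033. Without the third library it lay above the 3 GC-rich genes in both backgrounds, at -0.35 and -0.20. After the trend was removed in the antisense background, 6 of the 9 were higher and none lower. These were TXNRD1 at 0.79 (SE 0.079, adjusted p = 2.28e-05), SRXN1 at 0.76, HMOX1 at 0.51, GCLC at 0.50, KEAP1 at 0.45 and GCLM at 0.35. NFE2L2, NQO1 and OSGIN1 did not pass, at 0.079, -0.082 and 0.10. TXNRD1, SRXN1, GCLC and GCLM were therefore higher with hnRNPK in Antisense cells under both treatments of the counts. In Antisense_NC against Ctrl_NC, where rho was -0.30, all 9 calls remained after the trend was removed, with HMOX1 at 1.09 and GCLM at 0.18. That fit called 4578 genes higher and 4610 lower of 14223.

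**Figure D3:**
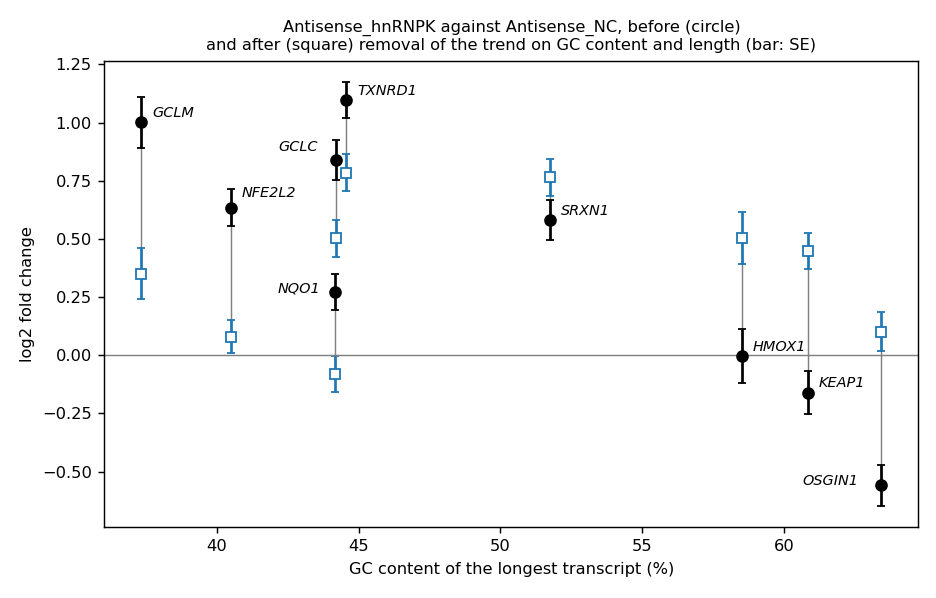
Log2 fold change with hnRNPK in the antisense background (vertical axis) against the GC content of the longest transcript in percent (horizontal axis), before (black circles) and after (blue squares) the dependence on GC content and transcript length was removed, with the SE as bar. Before removal the values descend from GCLM and TXNRD1 to OSGIN1 at -0.56, and after removal HMOX1 and KEAP1 lie at 0.51 and 0.45.

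Whether the hnRNPK effect differed between the antisense and the Ctrl background was tested by an interaction term. With all libraries, 0 of the 9 genes and 0% of 15346 genes passed, with 2179 genes at an unadjusted p under 0.05, a smallest adjusted p of 0.0652 and 271 genes called by DESeq2. The largest differences among the 9 were 0.69 (SE 0.19, adjusted p = 0.157) for TXNRD1, 0.64 (SE 0.16, adjusted p = 0.136) for NQO1, 0.64 (SE 0.20, adjusted p = 0.199) for GCLM and 0.61 (SE 0.18, adjusted p = 0.19) for SRXN1. Without the third library of each hnRNPK group, 7 of the 9 had a more positive change with hnRNPK in the antisense background, beside 16% called, 6.58% higher and 9.47% lower, of 15695 genes. These were SRXN1 at 0.73 (SE 0.11, adjusted p = 9.54e-05), TXNRD1 at 0.56, NQO1 at 0.60, GCLM at 0.63, HMOX1 at 0.61 (SE 0.15, adjusted p = 0.00832), OSGIN1 at 0.78 and KEAP1 at 0.48. In the Ctrl cells without the third library HMOX1, OSGIN1 and KEAP1 fell, at -0.57, -1.37 and -0.56. In the antisense background they were at -0.0042, -0.56 and -0.16 with all libraries, where only OSGIN1 passed. Without the third Antisense_hnRNPK library HMOX1 was at 0.0032 (adjusted p = 0.983). On TMM-scaled counts their positive terms thus stand for a smaller fall of OSGIN1 and no called change of HMOX1 and KEAP1, not for a called rise. GCLC and NFE2L2, which rose in the antisense background and, without the third library, in the Ctrl background, differed by 0.079 and 0.10 (adjusted p = 0.672 and 0.663). Leaving out the third Ctrl_hnRNPK library alone gave 6 of 9, with HMOX1 at 0.55 (adjusted p = 0.0409). That fit called 449 genes higher and 593 lower of 15743. As only 2 Ctrl_hnRNPK libraries enter these fits, the p-values rest on few libraries.

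The other pathway genes were also counted in Antisense_hnRNPK against Antisense_NC, where 33.4% of the 14501 genes tested were called higher and 30.5% lower. SLC7A11 was again the highest of the glutathione and cystine genes, at 2.19 (adjusted p = 1.58e-06), in a list where 2 of 7 rose and 3 fell and GPX4, a lipid peroxide reductase, was lowest at -1.32. Of 6 NADPH genes, 2 rose and 4 fell, with IDH1 highest at 0.98. Of 9 iron and heme genes, 2 rose and 5 fell, from FECH, which inserts iron into heme, at 0.58 to FTL, the ferritin light chain, at -0.97. Among regulators and partners, 5 of 9 rose and 3 fell, with BTRC at 1.01 and MAFK at -0.95, the same extremes as in Antisense_NC against Ctrl_NC. Of 8 detoxification genes tested, 3 rose and 3 fell, from ABCC2 at 0.62 to ABCC1 at -0.85. The 3 thioredoxin and peroxiredoxin genes included TXN at 0.46 and PRDX6 at -0.51. Of 10 ATF4 targets, 4 rose and 2 fell, from ASNS, asparagine synthetase, at 1.64 to ATF3 at -0.33. Median log2 fold changes of these lists ran from -0.57 (NADPH supply) to 0.31 (regulators and partners), against 0.040 over all genes and 0.58 for the 9. After correction for GC content and length, the medians were 0.066 for regulators and partners (4 higher, 2 lower), 0.59 for the ATF4 targets (9 higher, 1 lower), -0.14 for the detoxification genes (3 higher, 4 lower) and 0.45 for the 9. That corrected fit called 2700 genes higher and 2956 lower of 14337. With library totals, 7 of the 10 ATF4 targets were higher and 0 lower, beside 6252 genes higher and 2848 lower of 14501.

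Across all 18 libraries the level of HMOX1 ran closest to that of SRXN1 among the other 8 genes. Pearson's r of log2 CPM was 0.893 for SRXN1, 0.757 for KEAP1, 0.636 for GCLM, 0.634 for NFE2L2, 0.570 for GCLC, 0.504 for TXNRD1, 0.432 for OSGIN1 and -0.663 for NQO1. These values are descriptions. The libraries fall into the antisense background and the rest, and they share groups, so the points are not independent. Within the 12 Ctrl and CRLM1 libraries the pattern was another one, with r = -0.875 for GCLC, -0.861 for TXNRD1, -0.757 for NFE2L2 and -0.748 for GCLM, against 0.851 for KEAP1, 0.821 for OSGIN1, 0.583 for SRXN1 and 0.545 for NQO1. The 4 libraries lowest in HMOX1 among these 12, replicates 1 and 2 of the hnRNPK groups, were the 4 highest in GCLC. Within the 6 Antisense libraries r lay between -0.308 (NQO1) and 0.473 (KEAP1). HMOX1 was thus aligned with GCLC, GCLM, TXNRD1 and NFE2L2 between the Antisense libraries and the rest. This did not extend to CRLM1_NC against Ctrl_NC, where HMOX1 was at -0.15 and TXNRD1 and NFE2L2 at 0.22 and 0.19. The inverse relation within the 12 Ctrl and CRLM1 libraries was seen on counts not corrected for GC content. With the correction and all 3 libraries, the changes with hnRNPK in the Ctrl background were -0.024 for HMOX1, 0.26 for GCLC, -0.085 for GCLM, 0.19 for TXNRD1 and 0.031 for NFE2L2. In the CRLM1 background they were 0.13, 0.22, -0.056, -0.095 and 0.037 in the same order, and none of these passed. With all libraries kept, none of the 9 had passed in these backgrounds without the correction either. A corrected fit without the third libraries was not run, so the part of GC content in the inverse relation was not tested.

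**Figure D4:**
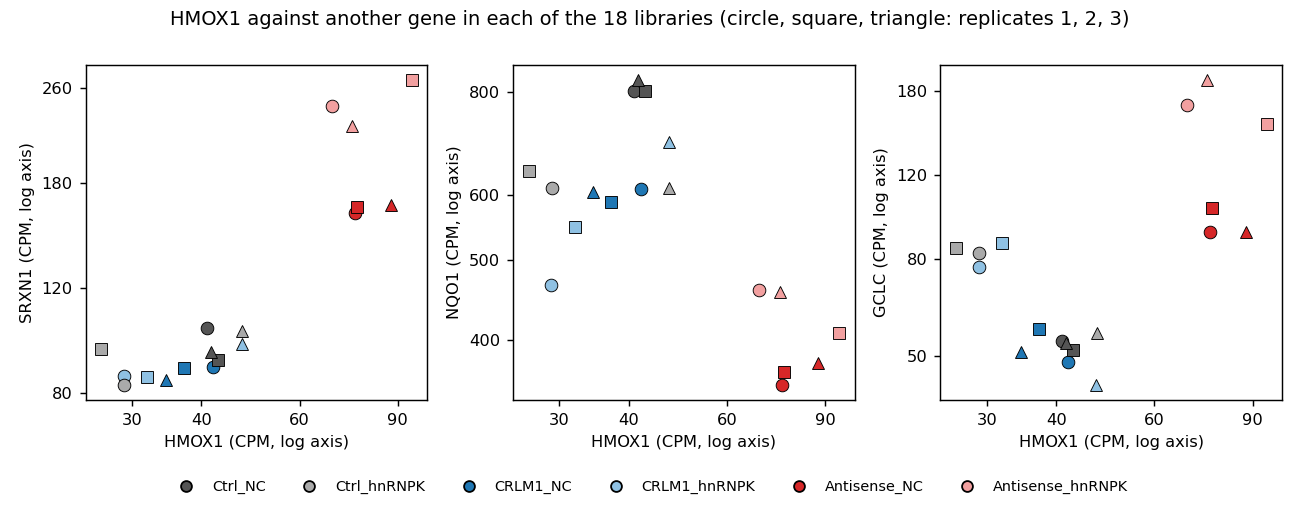
HMOX1 (horizontal axis, CPM, log scale) against SRXN1, NQO1 and GCLC (vertical axes, CPM, log scale) in each of the 18 libraries, coloured by group, with marker shape for the replicate. The 6 Antisense libraries (red) lie to the right, above all others for SRXN1 and GCLC and below all others for NQO1, and among the grey and blue libraries the 4 lowest in HMOX1 were the 4 highest in GCLC.

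The ratio of HMOX1 to another gene within a library does not depend on the scaling between libraries. In log2, HMOX1 over NQO1 (CPM) stood at -4.28 ± 0.044 in the Ctrl_NC libraries, -3.99 ± 0.14 in those of CRLM1_NC and -2.20 ± 0.086 in Antisense_NC (SD, n = 3), the widest shift among the 8 pairs. The ratio to SRXN1 was -1.20 ± 0.12 in Ctrl_NC and -1.04 ± 0.10 in Antisense_NC, with overlapping libraries of these groups, and it was -1.63 ± 0.17 in Antisense_hnRNPK. For TXNRD1 it went from -3.04 ± 0.13 in Antisense_NC to -4.15 ± 0.30 in Antisense_hnRNPK, and for GCLM from 1.31 ± 0.22 to 0.29 ± 0.087, in both cases without overlap. These ratios are not corrected for GC content. After the correction, HMOX1 changed by 0.51 with hnRNPK in the Antisense cells, below TXNRD1 (0.79) and SRXN1 (0.76) and above GCLM (0.35), so that the order of HMOX1 and GCLM was turned.

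Of the 12958 genes whose mean reached 1 CPM, those most like HMOX1 over the 18 libraries were TMEM203 (r = 0.975), SLC52A3 (0.973), SLC7A5 (0.969), NIT1 (0.966) and CES2 (0.965). SLC52A3 encodes a riboflavin transporter and SLC7A5 the light subunit of an amino acid exchanger. None of the 8 other genes of the NRF2 set was among these 5. SRXN1 ranked 188th, KEAP1 964th and NQO1 11902nd by the same measure.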

How the data were processed

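RNA was sequenced from 18 HCT116 libraries (KAPA RNA HyperPrep, paired reads of 151 bases). According to the study's methods, the authors trimmed reads with FASTX-Toolkit, aligned them with TopHat2 to GRCh38 (up to 4 mismatches, Gencode annotation) and counted uniquely mapped reads per gene. The deposited table of raw counts holds 31004 genes, with 19732681 to 27039520 reads per library. A second deposited table holds FPKM values, rounded to hundredths, for 30879 genes, and served for levels between genes. Use of read strand in counting is not given in the sources used here.

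Groups and replicate numbers were taken from the sample titles. Counts were tested with edgeR 4.0.16 (R 4.3.3; TMM, filterByExpr, robust quasi-likelihood F-test, two-sided, Benjamini-Hochberg adjustment over all genes tested), using the groups of each comparison, or the 4 groups of an interaction. CPM shown are TMM-scaled, with a prior count of 1 for log2 values. Markers were read as FPKM. The script was tested on simulated counts. Alternatives were DESeq2 1.42.0, limma 3.58.1 on log2(FPKM + 0.1) and log2(FPKM + 1), RLE size factors, no filter, 1 fit of all libraries, a replicate block, removal of a trend on GC content and transcript length (lowess, span 0.3), leaving out each library, and library totals in place of TMM, the last chosen after seeing the data. Log2 fold changes from FPKM are on the log2(value + pseudocount) scale.

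The 9 genes and the lists of pathway genes were chosen with earlier results of these data known, and all 9 are named whatever their values. From each other list, at most the highest and the lowest gene past the threshold were named, and 1 of these is not reported here. CBR1 and CD3E were not analysed here. GC content was that of the longest Gencode transcript. Same-numbered libraries did not deviate together between NC groups or between an hnRNPK group and its own NC group (r from -0.12 to 0.064). The numbers were therefore not taken as pairs. Same-numbered libraries of different hnRNPK groups were not checked in this way, and the third libraries of Ctrl_hnRNPK and CRLM1_hnRNPK both resembled NC libraries. Promoter windows came from RefSeq (GRCh38.p14).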

Additional observations from a re-analysis of the deposited data

Results flagged for a closer look

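NQO1 stood out in the comparison of backgrounds. Each Ctrl_hnRNPK library was below the mean of Ctrl_NC, and each Antisense_hnRNPK library was above the mean of Antisense_NC, so that hnRNPK went with less NQO1 in one background and with more in the other. The difference of the 2 mean changes was 0.658 on the log2 CPM scale. The interaction test by edgeR gave 0.64 (adjusted p = 0.136) with all libraries and did not pass. By DESeq2 the adjusted p was 0.00122, and without the third library of each hnRNPK group edgeR gave 0.60 (adjusted p = 0.000191). After correction for GC content and length, the change of NQO1 with hnRNPK was -0.59 (adjusted p = 0.355) in the Ctrl background and -0.082 (adjusted p = 0.42) in the antisense background. The interaction was then 0.52 (adjusted p = 0.0455) and passed.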

How the results depend on the processing

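With 3 libraries per group, single libraries decided several values. Leaving out each in turn, HMOX1 ranged from -0.23 to -0.089 (log2) in CRLM1_NC against Ctrl_NC, from -0.57 to -0.16 with hnRNPK in the Ctrl cells, from -0.27 to 0.083 in the CRLM1 cells and from -0.20 to 0.089 in the antisense background. The number of the 9 genes past the threshold ran from 0 to 8 with hnRNPK in both the Ctrl and the CRLM1 cells, and from 0 to 6 in the interaction of Antisense against Ctrl. Among single genes, GCLM ran from -0.10 to 0.040 and GCLC from -0.10 to 0.023 in CRLM1_NC against Ctrl_NC, SRXN1 from -0.10 to 0.0080 with hnRNPK in the Ctrl cells, and NQO1 from -0.20 to 0.072 and TXNRD1 from -0.048 to 0.36 in the CRLM1 cells. When 1 fit of all libraries was used, 0 of the 9 passed in CRLM1_NC against Ctrl_NC, and 102 in place of 4960 genes overall. In Antisense_hnRNPK against Antisense_NC, HMOX1 was 0.00048 in that fit, 0.23 and 0.22 with FPKM (pseudocounts 0.1 and 1), 0.25 with library totals and 0.51 without the GC and length trend. The same removal gave HMOX1 0.13 with hnRNPK in the CRLM1 cells. The interaction of Antisense against Ctrl had 3 of 9 past the threshold with DESeq2, with FPKM + 1 and with the trend removed, and 7 without the third hnRNPK libraries. Among all genes, those fits called 271, 220, 310 and 2519. Further signs turned. In CRLM1_NC against Ctrl_NC, GCLM was 0.029, 0.021 and 0.035 and GCLC 0.037, 0.033 and 0.046 (FPKM + 0.1, FPKM + 1, library totals). In CRLM1_NC against Antisense_NC, OSGIN1 was -0.038, -0.036 (FPKM) and -0.034 (trend removed). With hnRNPK in the Ctrl cells, SRXN1 was 0.039, 0.038, 0.083 (FPKM, totals) and 0.12 (trend removed), GCLM -0.085 and KEAP1 0.023. In the CRLM1 cells with the trend removed, GCLM was -0.056 and TXNRD1 -0.095. In the antisense background, KEAP1 was 0.080, 0.076, 0.093 and 0.45, and with the trend removed NQO1 was -0.082 and OSGIN1 0.10. The causes were not tested. The share of called genes that were higher went from 52.3% to 68.7% (library totals) in Antisense_hnRNPK against Antisense_NC, from 51.6% to 64.7% in Antisense_NC against Ctrl_NC, from 49.4% to 68.2% in CRLM1_NC against Ctrl_NC, and from 47.6% to 36.9% in CRLM1_NC against Antisense_NC. The fit of all libraries called 2357 in place of 8102 genes in the latter and 5093 in place of 9575 in Antisense_NC against Ctrl_NC, and the trend removal 5656 in place of 9268 in Antisense_hnRNPK against Antisense_NC. With a replicate block, KEAP1 in Antisense_NC against Ctrl_NC had 0.14 (adjusted p = 0.0540), leaving 7 genes higher, and no other member's call changed; it called 2 genes overall in place of 0 in the interaction of Antisense against Ctrl, where the alternatives called 0 to 2519. HMOX1 in Antisense_NC against Ctrl_NC and against CRLM1_NC kept its sign and its call under every alternative run.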
